A study of Mus musculus with 6 samples.

Results

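The enzymes and cofactors that build, lengthen and desaturate fatty acids were represented in liver by 5 genes, taken from the deposited table by their symbols: Acly, Mid1ip1 and Elovl6 of de novo synthesis, and Elovl5 and Fads2 of polyunsaturated fatty acid synthesis. The table held 389 genes in all. RNA came from livers of whole-body Usp28 knockout mice (KO, genotype label Usp28 knockout, 3 samples) and of wild-type mice (WT, genotype label Usp28 wildtype, 3 samples). KO and WT mice alike, 6 samples in all, had been fed a diet deficient in methionine and choline for 4 weeks, beginning when they were 8 weeks old. Such feeding is a model of steatohepatitis, and every value below was measured under it. The protein made from Usp28 is a deubiquitinase, which strips ubiquitin from its target proteins. The sources used here do not give the type of knockout allele, the sex of the mice or their feeding before collection. Nor do they give whether the 3 samples of a group were 3 animals. The p-values set the difference between KO and WT against the spread of these samples within groups, which may in part be technical.

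Liver makes fatty acids from sugar by cutting citrate to acetyl-CoA, carboxylating it to malonyl-CoA and joining these units into palmitate, which is then lengthened and desaturated. This de novo route is driven by insulin through the factor SREBP1 and by sugar through ChREBP. Polyunsaturated fatty acids are instead made from dietary linoleic and alpha-linolenic acid by alternating desaturation and elongation. Their enzymes are known in mouse liver as targets of both SREBP1 and the fatty acid receptor PPAR-alpha, and polyunsaturated fatty acids are known to restrain SREBP1.

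The authors had selected the 389 genes for a difference between KO and WT, and the smallest log2 fold change in size was 1.004 and the largest FDR 0.0494 in the authors' deposited table. A difference between KO and WT in any of the 5 genes was thus a condition for being in the table, and the tests below are no independent evidence of it. Since the same libraries served the selection, the sizes given may be too large and the errors too small. Depth was recovered as 20860000, 22130000 and 21820000 reads in KO replicates 1, 2 and 3, and 20370000, 24160000 and 20350000 reads in WT replicates 1, 2 and 3. The 389 genes took 3.73% to 3.77% of the reads of KO libraries, and 8.74%, 8.81% and 5.45% of those of WT replicates 1, 2 and 3, so WT replicate 3 stood apart from the other WT libraries. Of 10 markers of recruited macrophages, 6 had a row, and all 6 were lower in KO (median log2 fold change -1.67), in a table of which 59.9% was lower. Without WT replicate 3 their median was -0.89 and 4 of the 6 passed edgeR's test, Cd14 and Lgals3 being lost, and these 2 overlapped between KO and WT. With scaling taken from the listed genes 2 of the 6 passed (median -1.06 to -1.0), Gpnmb and Mmp12. Both alternatives were applied to these markers after seeing the data. Their FPKM (a level corrected for transcript length and library size) summed to 20.7 to 28.9 in KO libraries and to 30.8 to 168 in WT libraries, highest in WT replicate 3, and no such marker was at 0. None of the 8 hepatocyte, 4 Kupffer cell, 5 stellate cell and 4 adipocyte markers had a row, and neither had Usp28 itself, so the tissue and genotype labels were not checked here. In bulk liver, fewer cells of a type and less RNA per cell cannot be told apart.

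Each of the 5 genes is protein-coding. Positions are those of the GENCODE M21 annotation of the mouse build GRCm38, because the authors' build is not given in the sources used here. Acly (ENSMUSG00000020917) lies on the minus strand of chromosome 11, from 100476353 to 100528000. Mid1ip1 (ENSMUSG00000008035) lies on the plus strand of chromosome X, from 10715013 to 10719690, and Elovl6 (ENSMUSG00000041220) on the plus strand of chromosome 3, from 129532355 to 129638495. Elovl5 (ENSMUSG00000032349) lies on the plus strand of chromosome 9, from 77917364 to 77984519, and Fads2 (ENSMUSG00000024665) on the minus strand of chromosome 19, from 10062765 to 10101746. Exons of Mid1ip1 overlap those of the antisense gene Gm14493, and exons of Elovl6 overlap those of the antisense gene Gm35986. Without a statement on strand in the counting, reads of each gene and its antisense partner cannot be told apart. No annotated exon of another gene overlapped Acly, Elovl5 or Fads2.

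The sequence just upstream of the start site is shown for 4 of the 5 genes, so that those higher and the elongase lower in KO can be set beside each other. Each is RefSeq sequence of build GRCm38.p6, read 5′ to 3′ on the gene's own strand. It runs from the outer end of the 250 bases before the RefSeq start to the first base that GENCODE places in an exon of the gene. Capitals mark matches, on either strand, to the motifs listed after the sequences.
Acly, chr11:100528001-100528250, minus strand: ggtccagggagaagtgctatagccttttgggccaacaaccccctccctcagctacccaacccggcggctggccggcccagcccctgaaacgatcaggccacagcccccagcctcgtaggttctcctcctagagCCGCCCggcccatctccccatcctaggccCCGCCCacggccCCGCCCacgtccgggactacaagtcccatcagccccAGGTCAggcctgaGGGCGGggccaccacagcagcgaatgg
Mid1ip1, chrX:10717115-10717364, plus strand: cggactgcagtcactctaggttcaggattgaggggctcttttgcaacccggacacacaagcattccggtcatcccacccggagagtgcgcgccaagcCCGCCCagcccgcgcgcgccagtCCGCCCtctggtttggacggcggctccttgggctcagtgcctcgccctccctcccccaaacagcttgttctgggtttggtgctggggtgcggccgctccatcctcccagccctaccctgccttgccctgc
Elovl6, chr3:129532136-129532354, plus strand: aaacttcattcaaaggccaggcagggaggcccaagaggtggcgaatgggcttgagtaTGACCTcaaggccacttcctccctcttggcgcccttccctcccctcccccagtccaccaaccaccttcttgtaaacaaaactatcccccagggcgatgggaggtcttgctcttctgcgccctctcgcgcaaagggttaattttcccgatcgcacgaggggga
Elovl5, chr9:77917115-77917363, plus strand: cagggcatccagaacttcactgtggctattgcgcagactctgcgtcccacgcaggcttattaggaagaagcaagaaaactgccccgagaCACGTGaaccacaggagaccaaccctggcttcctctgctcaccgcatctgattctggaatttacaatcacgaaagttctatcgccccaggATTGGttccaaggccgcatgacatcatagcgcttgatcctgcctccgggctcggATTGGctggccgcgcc

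No stretch is printed for Fads2, because 243 of its 250 bases lie in an exon of another annotated transcript of the gene. The Mid1ip1 window lies downstream of the gene's outermost annotated start, outside its exons. The motifs searched on both strands were the E-box CACGTG, the NF-Y box CCAAT, the GC box GGGCGG, the nuclear receptor half-site AGGTCA and the sterol response element TCACNCCAC. The direct repeats AGGTCANAGGTCA and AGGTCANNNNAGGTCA, which contain the half-site, were also searched. Acly held 4 GC boxes, at -117, -88, -76 and -27 from the start, Mid1ip1 held 2, at -153 and -130, and Fads2 held 1, at -186. Of 32817 RefSeq promoters of the same 250 bases, 32.7% held a GC box. Elovl5 held an E-box at -161, a motif found in 6.02% of these promoters, and NF-Y boxes at -71 and -17, a motif found in 33.8%. Acly held a half-site at -40 and Elovl6 one at -193, a motif found in 14.0% of promoters. The sterol response element, present in 1.05% of promoters, and both direct repeats, present in 0.0335% and 0.0152%, had no match in the 5 windows. A match is a string of letters and no shown binding site.

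In KO liver the 3 synthesis genes were higher and the 2 polyunsaturated genes lower than in WT liver. In edgeR's quasi-likelihood test with Benjamini-Hochberg adjustment over all 389 genes, 5 of the 5 passed an adjusted p of 0.05. The background was 99.7% of the table passing in either direction, 39.8% higher and 59.9% lower in KO, so nothing is read from the count. The FPKM ranges of KO and WT did not overlap in 4 of the 5 genes, Elovl6 being the exception, against 93.3% of the table. The median log2 fold change was 1.41 over the synthesis genes and -1.46 over the polyunsaturated genes, against -1.10 over all 389.

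**Figure D1:**
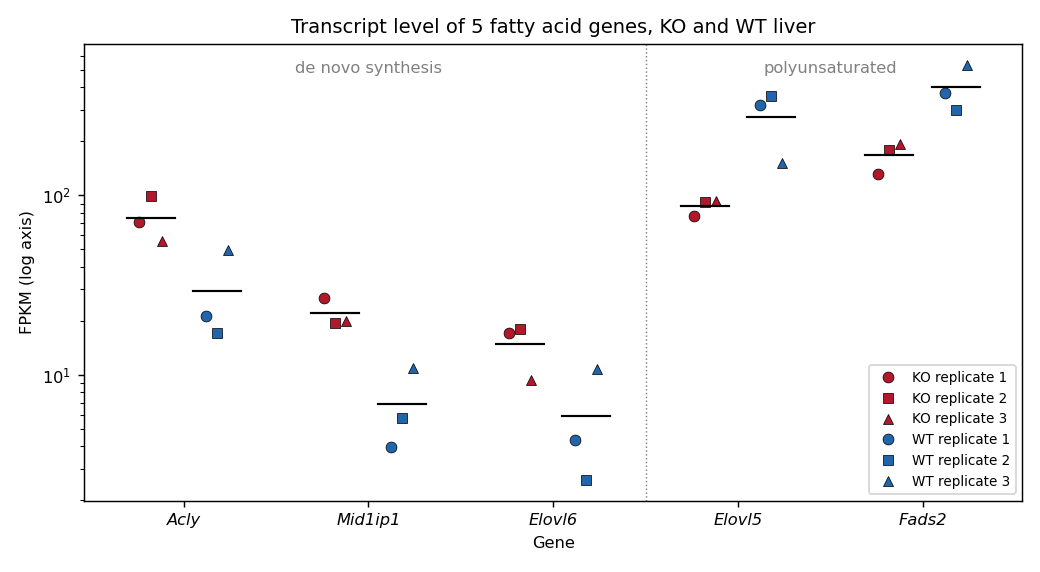
FPKM on a log axis for the 5 genes in the 3 KO libraries (red, left of each pair) and the 3 WT libraries (blue, right), with bars at the group means. WT replicate 3 (blue triangle) lies nearest to KO for Acly, Mid1ip1, Elovl6 and Elovl5, and farthest from KO, at 534 FPKM, for Fads2.

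Acly encodes ATP-citrate lyase, which makes the acetyl-CoA from which fatty acids and cholesterol are built. It stood at 70.8, 98.7 and 55.4 FPKM in KO replicates 1, 2 and 3, and at 21.3, 17.2 and 49.3 FPKM in WT replicates 1, 2 and 3. The groups did not overlap, but the lowest KO library and WT replicate 3 lay close together. The means were 75.0 ± 21.9 FPKM in KO and 29.3 ± 17.5 in WT (SD, n = 3 each), and the fit on counts gave a 2.54-fold higher level in KO, or 1.34 ± 0.44 on the log2 scale (± SE; edgeR, adjusted p = 0.0159). Without WT replicate 3 it was 1.95, and the call was lost without KO replicate 2 (1.09; edgeR, adjusted p = 0.0699) or WT replicate 2 (1.07; edgeR, adjusted p = 0.0550).

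Mid1ip1 encodes a small protein that binds acetyl-CoA carboxylase and promotes its assembly into the active polymer. It stood at 26.8, 19.3 and 19.9 FPKM in KO replicates 1, 2 and 3, against 3.96, 5.74 and 10.9 FPKM in WT replicates 1, 2 and 3. Every KO library lay above every WT library, and WT replicate 3 was the highest of its group. The means were 22.0 ± 4.17 FPKM in KO and 6.87 ± 3.6 in WT (SD, n = 3 each). The log2 fold change on counts was 1.95 ± 0.45 (SE; adjusted p of 0.00632 by edgeR), the largest in size of the 5 genes, and it passed without any 1 of the 6 libraries (1.68 to 2.64). Its FPKM and counts were not in a fixed proportion. The transcript length implied by the count, the FPKM and the depth was 1024 bases in WT replicate 2 and 1641 to 1923 bases in the other 5 libraries. The counts were 1000, 822 and 721 reads in KO replicates 1, 2 and 3, and 137, 142 and 364 in WT replicates 1, 2 and 3. As a share of all reads, WT replicate 2 was therefore the lowest library (0.000588%) and WT replicate 1 the next (0.000673%), the reverse of their order by FPKM. On log2(FPKM + 0.1) the log2 difference by limma was 1.78, nearer to the 1.68 of the authors' deposited table.

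Elovl6 encodes the elongase that lengthens palmitate to stearate at the end of de novo synthesis. It stood at 17.2, 17.9 and 9.36 FPKM in KO replicates 1, 2 and 3, and at 4.33, 2.59 and 10.7 FPKM in WT replicates 1, 2 and 3. Here the groups overlapped: KO replicate 3 lay below WT replicate 3, also as a share of all reads (0.00557% and 0.00609%). The means were 14.8 ± 4.73 FPKM in KO and 5.88 ± 4.28 in WT (SD, n = 3 each), and the log2 fold change was 1.41 ± 0.53 (SE; adjusted p of 0.0252 by edgeR). The call held without KO replicate 3 (1.64) or WT replicate 3 (2.26) and was lost without any other library. Its log2 fold change was then 1.32 without KO replicate 1, 1.24 without KO replicate 2, 1.22 without WT replicate 1 and 1.03 without WT replicate 2 (edgeR adjusted p from 0.0610 to 0.0925). The FPKM and counts of Elovl6 were not in a fixed proportion either. Its implied transcript length ran from 4858 bases in WT replicate 2 to 5949 bases in KO replicate 3, a limit shared by the FPKM ratios to Elovl6 below.

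Elovl5 encodes the elongase that lengthens polyunsaturated fatty acids after the first desaturation. It stood at 76.3, 91.3 and 92.6 FPKM in KO replicates 1, 2 and 3, against 317, 356 and 152 FPKM in WT replicates 1, 2 and 3. The KO libraries lay close together and below all WT libraries, while WT replicate 3 lay far below the other WT libraries. The means were 86.7 ± 9.06 FPKM in KO and 275 ± 108 in WT (SD, n = 3 each). The level was 3.15-fold lower in KO, a log2 fold change of -1.66 ± 0.38 (SE; adjusted p of 0.00632 by edgeR), and it passed without any 1 library (-1.95 to -1.42).

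Fads2 encodes the delta-6 desaturase, which takes the first step from linoleic and alpha-linolenic acid towards the longer polyunsaturated fatty acids. It stood at 131, 178 and 194 FPKM in KO replicates 1, 2 and 3, and at 372, 298 and 534 FPKM in WT replicates 1, 2 and 3. All KO libraries lay below all WT libraries, and WT replicate 3 was the highest of all 6. The means were 168 ± 33.0 FPKM in KO and 401 ± 121 in WT (SD, n = 3 each), and the log2 fold change was -1.26 ± 0.36 (SE; adjusted p of 0.0113 by edgeR), and it passed without any 1 library (-1.43 to -1.0). It was the 1 gene of the 5 that did not pass when library scaling was taken from the 389 genes themselves. That scaling assumes most of them to be unchanged and raised the median log2 fold change of the table by 0.58 to 0.66. With it the log2 fold change of Fads2 was -0.65 (TMM, edgeR adjusted p = 0.121), -0.61 (relative log expression factors, edgeR adjusted p = 0.166) or -0.61 (DESeq2's own factors, adjusted p = 0.138), and the other 4 genes passed in the same directions. Elovl5 was then closer to its threshold, at -1.11 (TMM, edgeR adjusted p = 0.0396), -0.99 (relative log expression factors, edgeR adjusted p = 0.0419) or -0.99 (DESeq2's own factors, adjusted p = 0.0186), against -1.66 by recovered depth. The synthesis genes moved the other way, to 1.96 for Acly (1.34 by recovered depth), 2.58 to 2.61 for Mid1ip1 (1.95) and 2.03 to 2.06 for Elovl6 (1.41).

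**Figure D2:**
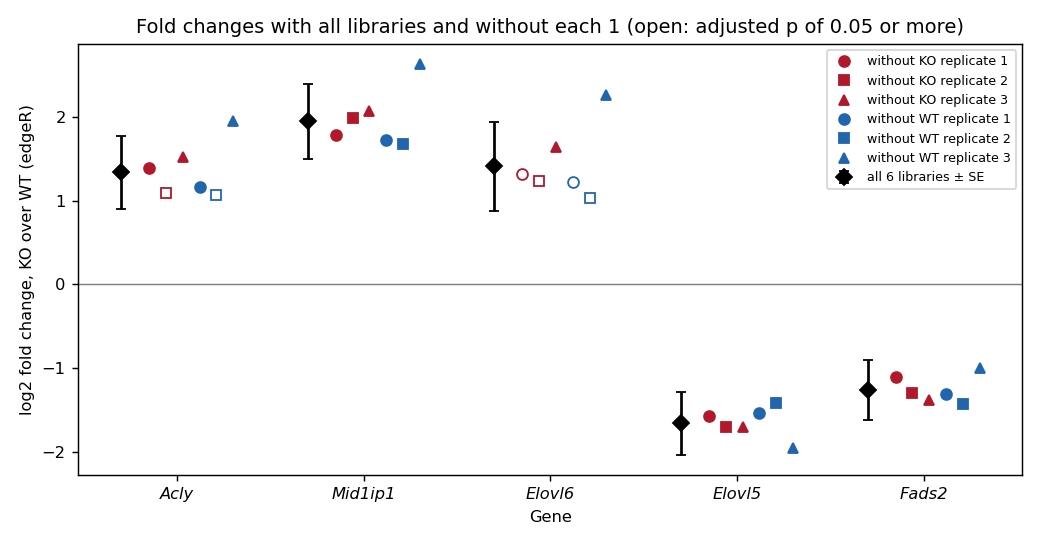
Log2 fold change of KO over WT from edgeR for each gene, with all 6 libraries (black diamonds, bars ± SE) and without 1 KO library (red) or 1 WT library (blue); open symbols did not reach an adjusted p of 0.05. No point crosses 0, open symbols occur for Acly and Elovl6, and leaving out WT replicate 3 gives the value farthest from 0 for every gene except Fads2.

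FPKM is scaled to transcript length, so levels can be set side by side between genes. In KO liver the order by mean FPKM was Fads2, Elovl5, Acly, Mid1ip1 and Elovl6, and Elovl5 and Acly overlapped in range. In WT liver the order was the same, but Fads2 and Elovl5 overlapped, as did Mid1ip1 and Elovl6. Fads2 was the highest of the 5 in every library except WT replicate 2, where Elovl5 was higher. As a share of all reads in a library, Fads2 took 0.0412% to 0.0612% in KO and 0.0939% to 0.168% in WT. Mid1ip1, the lowest by this measure, took 0.00330% to 0.00479% in KO and 0.000588% to 0.00179% in WT.

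Ratios of FPKM within a library do not depend on the scaling of that library, and they set the 2 branches against each other directly. The genes of the 2 branches had passed the authors' selection in opposite directions. A shift of these ratios between KO and WT was therefore built in, and only the values are described. The ratios of Elovl5 and of Fads2 to Mid1ip1, and of Fads2 to Elovl6, were not taken, so the ratios are not ranked by size. Elovl5 was 4.45, 5.10 and 9.89 times the level of Elovl6 in KO replicates 1, 2 and 3, and 73.2, 137 and 14.2 times in WT replicates 1, 2 and 3. The groups did not overlap, and KO replicate 3 and WT replicate 3 were the nearest to each other. Relative to Acly, Elovl5 stood at a ratio of 1.08, 0.926 and 1.67 in KO replicates 1, 2 and 3, against 14.9, 20.7 and 3.08 in WT replicates 1, 2 and 3. The ratio of Fads2 to Acly was 1.85, 1.81 and 3.51 in the KO libraries and 17.4, 17.4 and 10.8 in the WT libraries, so in both groups of livers Fads2 stayed above Acly. In KO liver Elovl5 and Acly thus stood near parity in 2 of 3 libraries, and in WT liver Elovl5 was above Acly in each.

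Within a branch, where the genes had passed the selection in the same direction, the ratios varied less. Acly to Elovl6 was 4.13, 5.51 and 5.92 in KO replicates 1, 2 and 3 and 4.93, 6.64 and 4.60 in WT replicates 1, 2 and 3, a range of 1.61-fold over all 6 libraries with the groups overlapping. Both genes varied far more than their ratio, Acly from 17.2 to 98.7 FPKM and Elovl6 from 2.59 to 17.9. Mid1ip1 to Elovl6 ranged 2.42-fold and Acly to Mid1ip1 2.04-fold, also with overlap. The polyunsaturated pair was less even: Fads2 to Elovl5 was 1.71, 1.95 and 2.10 in KO replicates 1, 2 and 3, and 1.17, 0.838 and 3.52 in WT replicates 1, 2 and 3. The KO values lay inside the WT range, and WT replicate 3 combined the lowest Elovl5 with the highest Fads2 of its group.

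**Figure D3:**
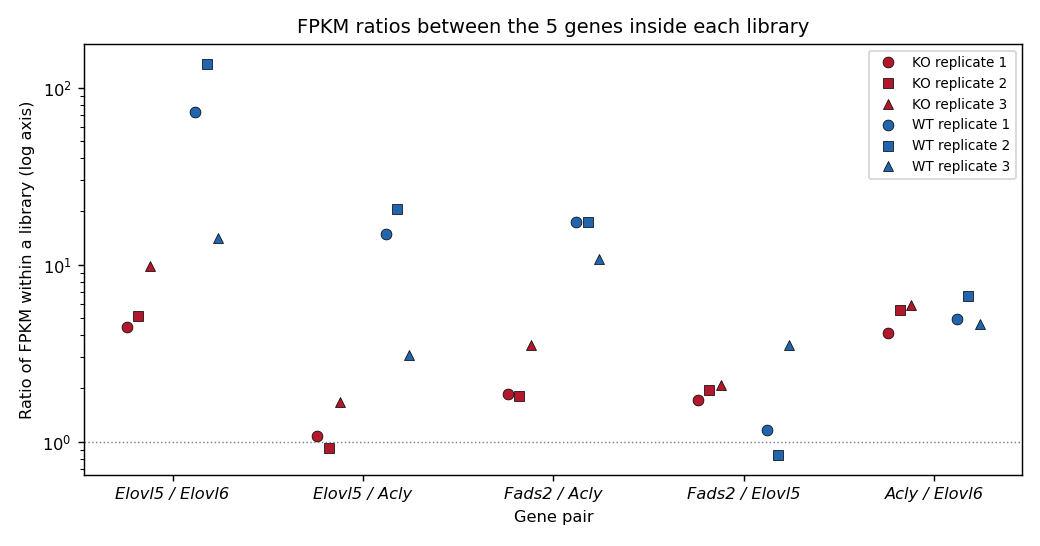
Ratio of FPKM between pairs of the 5 genes inside each library, on a log axis, for KO (red, left) and WT (blue, right); the dotted line marks equal levels. The 3 ratios across branches separate KO from WT, while Fads2 / Elovl5 and Acly / Elovl6 overlap. A shift of the ratios across branches was built in by the selection of the genes.

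The branches were also summarised as the mean log2(FPKM + 0.1) of the 3 synthesis genes minus that of the 2 polyunsaturated genes. This difference was -1.64, -1.97 and -2.61 in KO replicates 1, 2 and 3, and -5.56, -5.65 and -3.98 in WT replicates 1, 2 and 3. It averaged -2.08 ± 0.50 in KO and -5.06 ± 0.94 in WT (SD, n = 3 each), 2.99 higher in KO on the log2 scale, and 2.69 to 3.53 higher when any 1 library was left out. No p is given, since the genes were chosen with results known, and the direction of the difference follows from the selection.

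WT replicate 3 did not lie between the groups in a uniform way. Set against the KO mean on the log2 scale, Acly stood at -1.77, -2.08 and -0.56 in WT replicates 1, 2 and 3. Elovl6 stood at -1.69, -2.41 and -0.41 in WT replicates 1, 2 and 3, and Mid1ip1 at -2.43, -1.91 and -0.99. Elovl5 stood at 1.87, 2.04 and 0.81 in the same libraries, likewise nearest to KO in WT replicate 3. Fads2 did the opposite, at 1.17, 0.85 and 1.69, farthest from KO in WT replicate 3. The macrophage marker sum was highest in the same library, at 168 FPKM, and its part in these values was not tested.

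Other genes of the pathway came from 4 lists, of which most members had no row in the table. Of the 9 reported genes these lists add to the 5, all 9 kept their direction in each alternative run. Runs that changed only the adjustment could not alter it. Scaling from the 389 genes themselves left 5 of the 9 past the threshold, without Acacb (-0.51 to -0.44), Elovl2 (-0.81 to -0.68), Ppara (-0.50 to -0.41) and Ppargc1a (-0.98 to -0.84). Adjusted over the 16208 genes that the authors' FDR implies, edgeR's test passed 0 of the 9, although 9 of 9 had an unadjusted p under 0.05. DESeq2 adjusted the same way, an alternative added after seeing the data, passed 5 of the 9, without Acacb, Khk, Srebf1 and Ppara. Of 12 genes of fatty acid synthesis 4 had a row, 3 higher and 1 lower in KO. The 3 higher were Acly, Mid1ip1 and Elovl6 themselves, so the only row this list adds is that of Acacb. Nothing is read from this count or from the median log2 fold change of the 4, 1.38 against -1.10 over all 389. The lower one, Acacb, encodes the acetyl-CoA carboxylase of the mitochondrial surface, whose malonyl-CoA restrains fatty acid entry for oxidation. Acacb stood at 3.40, 6.07 and 4.57 FPKM in KO replicates 1, 2 and 3 and at 7.98, 12.9 and 8.14 FPKM in WT replicates 1, 2 and 3 (log2 fold change -1.06 ± 0.34, SE; adjusted p of 0.0159 by edgeR). The call was lost without KO replicate 1 (-0.88), KO replicate 3 (-1.03) or WT replicate 2 (-0.77), with adjusted p from 0.0548 to 0.0654 by edgeR. Its direction was thus that of the polyunsaturated genes, unlike Mid1ip1, whose protein acts on the carboxylases.

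Of 20 genes of polyunsaturated and long-chain synthesis 3 had a row, and all 3 were lower in KO, in a table of which 59.9% was lower. Their median was -1.38, against -1.10 over all 389 genes. Of the 3, Elovl5 and Fads2 were the genes already described, so nothing is read from the count. The third, Elovl2, encodes the elongase that acts after Elovl5 on longer polyunsaturated chains. Elovl2 stood at 72.6, 78.3 and 66.5 FPKM in KO replicates 1, 2 and 3, against 269, 186 and 108 FPKM in WT replicates 1, 2 and 3. The groups did not overlap and WT replicate 3 was again nearest to KO, as for Elovl5 and not as for Fads2. The log2 fold change of Elovl2 was -1.38 ± 0.38 (SE; adjusted p of 0.00987 by edgeR), and -1.65 without WT replicate 3.

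Of 6 genes of sugar and NADPH supply reported here, Pklr and Khk had a row. Both were higher in KO, in a table of which 39.8% was higher. Their median was 1.58, against -1.10 over all 389 genes. Pklr, which encodes liver pyruvate kinase, stood at 233 to 296 FPKM in the KO libraries, and at 36.7, 75.2 and 115 FPKM in WT replicates 1, 2 and 3. Khk, which encodes the first enzyme of fructose use, stood at 311, 358 and 391 FPKM in KO replicates 1, 2 and 3, and at 105, 184 and 202 FPKM in WT replicates 1, 2 and 3. For both genes the groups did not overlap and WT replicate 3 was the highest WT library. The log2 fold change of Khk was 1.12 ± 0.34 (SE; adjusted p of 0.0136 by edgeR), and it did not pass without WT replicate 1 (0.88; adjusted p of 0.0530 by edgeR). Of 17 regulators 5 had a row, 2 higher and 3 lower in KO, with a median of -1.07. The whole table was 39.8% higher and 59.9% lower, so nothing is read from the counts of either list. Srebf1, which encodes SREBP1, stood at 25.8 ± 3.24 FPKM in KO and 8.12 ± 6.71 in WT (SD, n = 3 each). On the log2 scale Srebf1 was 1.63 higher, and 2.54 higher without WT replicate 3. Mlxipl, which encodes ChREBP, stood at 30.8 ± 3.26 FPKM in KO and 13.5 ± 4.87 in WT (SD, n = 3 each). The lower regulators were Ppara, Ppargc1a and Insig2. For Ppargc1a the groups overlapped, with KO replicate 2 at 3.03 FPKM and WT replicate 3 at 2.95 FPKM. Those of Ppara and Insig2 did not overlap. Insig2 encodes a protein that holds SREBP precursors in the endoplasmic reticulum, and stood at 74.5, 73.1 and 82.8 FPKM in KO replicates 1, 2 and 3, against 241, 269 and 189 FPKM in WT replicates 1, 2 and 3 (log2 fold change -1.50 ± 0.31, SE; adjusted p of 0.00462 by edgeR). With scaling from the listed genes Insig2 stood at -0.93 to -0.86 and still passed (adjusted p from 0.0318 to 0.0493 over edgeR and DESeq2).

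**Figure D4:**
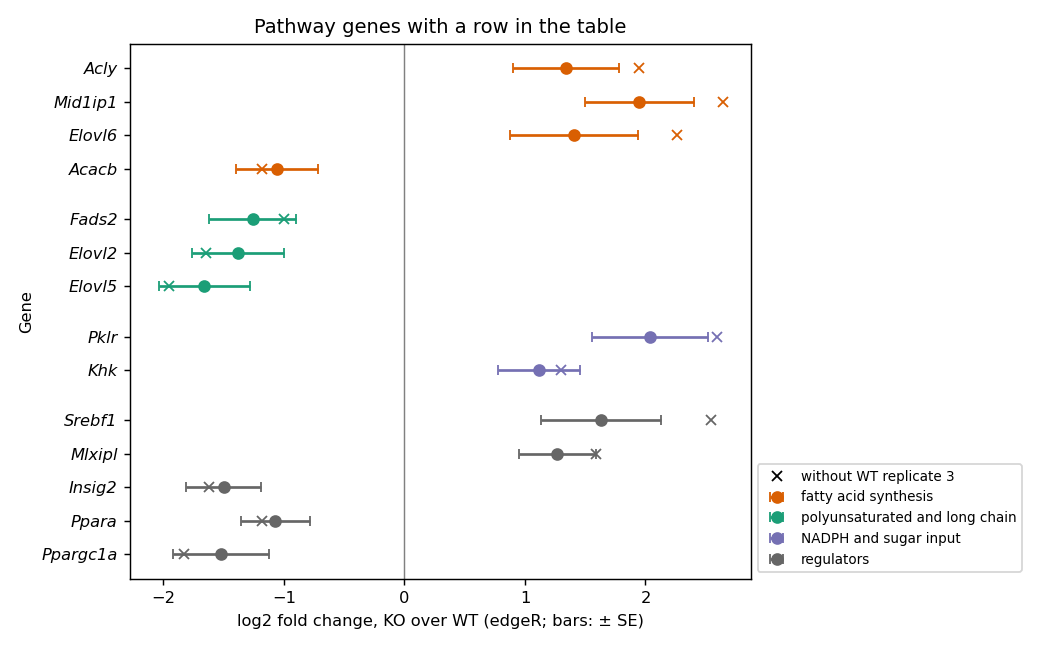
Log2 fold change of KO over WT (edgeR, points with bars ± SE) for 14 pathway genes with a row in the table, coloured by list; crosses give the value without WT replicate 3. Acacb lies on the lower side with the polyunsaturated genes, and the crosses of Acly, Mid1ip1, Elovl6, Pklr and Srebf1 lie beyond the bars.

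The rows whose profile over the 6 libraries came nearest to each gene are listed here. They differed between the branches, but this was built in by the choice of rows in the table. Each row stood clearly higher or lower in KO, so a gene's nearest rows would share its direction. Only the rows and their distances are described, and no usual nearest distance in the table is given to set them against. Likeness was the root mean square difference of log2(FPKM + 0.1), each gene centred on its own mean, so a smaller value is a closer match. Acly came nearest to Mvk, which encodes mevalonate kinase of cholesterol synthesis, at 0.19, followed by Sult1c2 at 0.20 and Enpep at 0.22. Elovl6 came nearest to Fdft1, which encodes squalene synthase of cholesterol synthesis, at 0.19, followed by Fam72a at 0.21 and Acly at 0.22. Fam72a was low throughout, at 0.54 to 0.80 FPKM in KO and 0.04 to 0.38 FPKM in WT.

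Mid1ip1 came nearest to Hsd3b3, a steroid dehydrogenase gene, at 0.08, followed by Gm9747 and by Serpina6, which encodes corticosteroid-binding globulin, both at 0.24. The level of Hsd3b3 is uncertain, since it belongs to a family of near-identical copies. Elovl5 came nearest to Oplah, which encodes oxoprolinase of the glutathione cycle, at 0.13, and to Cpt1a, which encodes the entry enzyme of mitochondrial fatty acid oxidation, at 0.14. Cpt1a stood at 60.2, 76.9 and 81.2 FPKM in KO replicates 1, 2 and 3 and at 275, 290 and 161 FPKM in WT replicates 1, 2 and 3, which is the same order of libraries within WT as for Elovl5. Fads2 came nearest to Hip1r, Paqr3 and Id1, each at 0.16, and all 3 of these were highest in WT replicate 3, like Fads2. No member of the polyunsaturated pair was among the 3 nearest rows of the other.

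**Figure D5:**
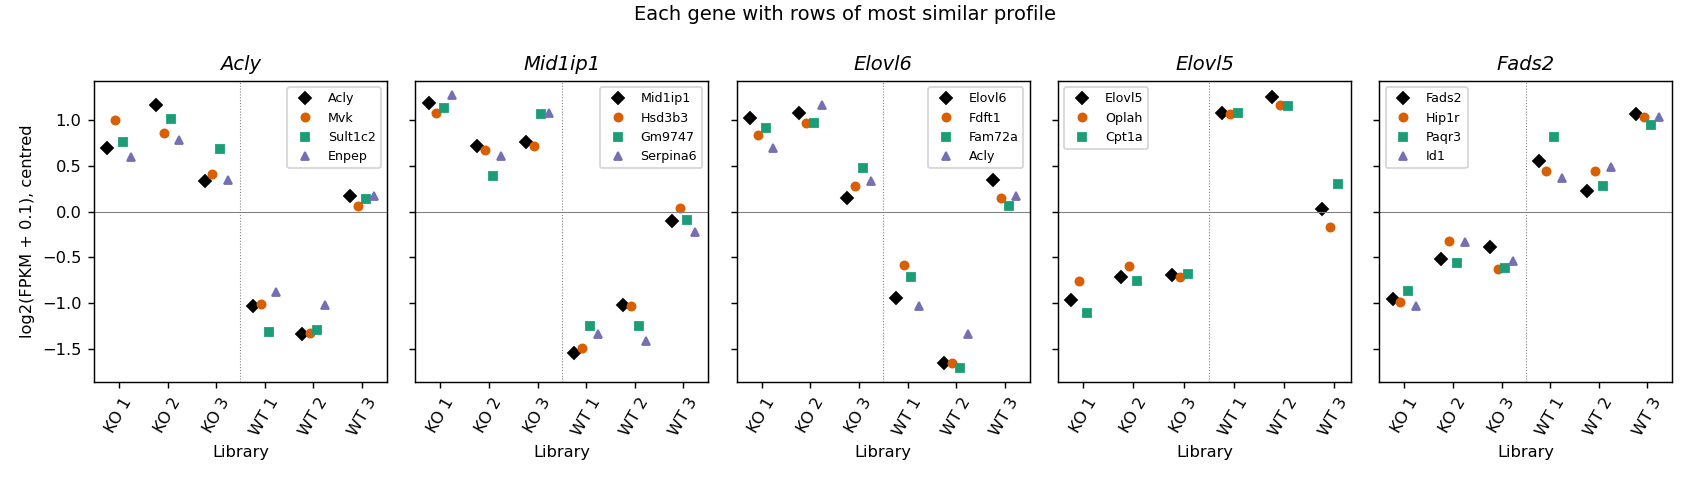
Centred log2(FPKM + 0.1) in the 6 libraries (KO left, WT right of the dotted line) for each of the 5 genes (black) and the named rows of the table nearest to it (coloured). WT replicate 3 sits on the KO side of the other WT libraries in the first 4 panels and at the top of the Fads2 panel.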

How the data were processed

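Liver RNA of 3 KO and 3 WT samples was analysed from 1 table. Tools named in the submitters' processing notes were RSEM, StringTie 1.3.1, HISAT2 and fastp 0.18.0. The step each served, the build, the annotation and any use of strand are not given in the sources read. Per the file headers, the authors deposited read counts and FPKM per gene and sample, the mean FPKM per group, a log2 fold change, and a p-value and FDR whose test is not stated. Samples were grouped by their titles.

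The 389 rows are a selection, so depth was recovered per library as the median of count over FPKM and transcript length, in 38 to 51 genes with 1 GENCODE transcript, a count of 50 or more and an FPKM of 1 or more. Of the 389 gene IDs, 388 matched that annotation. The test on counts was edgeR 4.0.16 (R 4.3.3; quasi-likelihood, library size set to the recovered depth, without scaling factors or filter, two-sided, Benjamini-Hochberg over 389 genes, threshold 0.05). SE is the absolute log2 fold change over the square root of the F statistic. The design had foreseen a selected table. On simulated counts this test called 44 of 100 genes with a log2 difference of 1 in size and 97 of 100 with a difference of 2. It also called 2 of 189 unchanged genes. Unlike the selected table, the simulation held many unchanged genes and as many higher as lower ones. FPKM was used as log2(FPKM + 0.1) for profiles. Alternatives used limma 3.58.1 and DESeq2 1.42.0, other scalings, a filter, a replicate block and leaving out each library. The genes, lists, motifs and tests were chosen with earlier results of these data known. The text names the 5 genes, the listed pathway genes with a row, and the 3 nearest rows of each of the 5, less a few results that are not reported here. Same-numbered KO and WT libraries were checked for pairing.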

Additional observations from a re-analysis of the deposited data

How the results depend on the processing

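All 5 genes kept their direction in every alternative run, though runs that changed only the adjustment could not alter it. The FDR of the leading rows of the authors' deposited table, times rank over p-value, implies about 16208 genes tested. Adjusted over that number, edgeR's p-values left 5 genes of the table and 0 of the 5 fatty acid genes, whose log2 fold changes were as before (Acly 1.34, Mid1ip1 1.95, Elovl6 1.41, Elovl5 -1.66, Fads2 -1.26; adjusted p from 0.263 to 1), although 5 of 5 had an unadjusted p under 0.05. DESeq2's p-values adjusted the same way, an alternative added after seeing the data, left 153 genes of the table and 3 of the 5 (Mid1ip1, Elovl5 and Fads2), but not Acly at 1.34 (adjusted p = 0.167) or Elovl6 at 1.41 (adjusted p = 0.350). Both adjustments count genes without a row as unchanged. In the authors' deposited table the FDR of the 5 ran from 2.39e-08 (Mid1ip1) to 0.00436 (Elovl6).

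Scaling from the listed genes called 250 genes (62.4% higher in KO, TMM), 236 (66.1%, relative log expression) or 239 (65.3%, DESeq2's own factors), against 388 (39.9%), and 4 of the 5, Fads2 being lost at -0.65, -0.61 and -0.61. Leaving out 1 library gave 278 to 372 genes and 3 to 5 of the 5, with log2 fold changes of 1.07 to 1.95 for Acly and 1.03 to 2.26 for Elovl6. The 3 of 5 arose without KO replicate 2 or WT replicate 2. A replicate block called 382 genes and 5 of the 5. With 3 libraries in each group, a block leaves the mean difference between branches at 2.99 by arithmetic, so that value is no check. Same-numbered libraries deviated together with correlations of 0.05, 0.08 and -0.03 only, and not every library correlated best with its own number, so the numbers were not taken as pairs. The difference between branches was 2.86 with a pseudocount of 1, 3.12 on counts and 3.08 for Elovl6 minus Elovl5 alone. The lowest count of any of the 5 genes was 137 reads, for Mid1ip1 in WT replicate 1.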
